A study of Pistacia vera with 121 samples.

Results

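The hull of Kerman pistachio was compared between 1357 and 1106 growing degree days, a sum of daily heat in °C that tracks development. Of 121 libraries of hull, shell and kernel, 47 are labelled hull, and 6 made the comparison: H17, H18 and H19, labelled 1357, against H9, H11 and H12, labelled 1106. All were bulk RNA-seq libraries of the cultivar Kerman, with no treatment named in the labels. Another library labelled hull 1357, H15, was left out because its profile was nearest to shell. The 2 hull libraries labelled 1223, H13 and H14, lie between the groups in heat sum. Shell labelled 1357 and 1106, with 3 libraries each, covers the same interval in another tissue. The labels do not say whether libraries of a group came from separate trees or fruit, so p-values measure the spread between these libraries, which may be technical.

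The pistachio fruit is a drupe. Its hull is the soft outer layer, its shell is the hard inner layer of the fruit wall, and its kernel is the seed. The fruit wall enlarges first, the shell then hardens by lignification, and the kernel fills the cavity last, so hull and shell are tissues of 1 organ with different fates. In bulk samples of such tissue, fewer cells of a type and less RNA per cell cannot be told apart.

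Total counts were 10664053 to 12850647 in the 1357 libraries, 12475973 to 17266672 in the 1106 libraries and 9498128 to 13131490 in the 1223 libraries. Between 20300 and 20843 genes starting PvKer had a count in the libraries compared. On log2(CPM + 1), where CPM stands for counts scaled to a common library total, replicates correlated across genes at 0.991 to 0.994 within 1357 and at 0.995 to 0.996 within 1106. Genes are not independent replicates, and these values describe the libraries.

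H15 went against its label. It correlated across genes at 0.990 with the group labelled shell 1223 and at 0.964 with the other libraries labelled hull 1357, whose own values were 0.990 to 0.993. For H17, H18 and H19, the mean of the other libraries of the group included H15. The identity of the tissue was checked with genes chosen in libraries outside the interval, from 1508 to 2139 without 1881. A gene was put in the class of a tissue where its mean there was at least 1 CPM and at least 4 times that of each other tissue. The 270 genes of the shell class took 0.0535% to 0.0711% of the counts at hull 1357 and 0.0755% to 0.0904% at hull 1106, against 1.46% in H15 and 2.17% to 4.05% in the shell libraries at 1106 and 1357. The 135 genes of the hull class took 0.633% to 0.854% at hull 1357 and 0.785% to 0.794% at hull 1106, against 0.185% in H15 and 0.0559% to 0.143% in the same shell libraries. Both hull groups matched their labels by these classes. H15 lay outside the range of these hull libraries and of these shell libraries on both.

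Between 1106 and 1357 growing degree days, 788 genes of the hull rose and 690 fell, out of 17390 tested. These were 4.53% and 3.97% of the genes tested. Calls needed an edgeR quasi-likelihood adjusted p under 0.05 together with a change of 1 or more on the log2 scale. The median change was 1.45 (log2) among genes that rose and -1.43 among genes that fell, and the median over all genes tested was 0.019. Changes of at least 2 on the log2 scale were seen in 164 of the genes that rose and 123 of those that fell. With H15 kept in the 1357 group, 216 genes rose and 300 fell. With all hull libraries but H15 in the fit, 451 rose and 463 fell, so the excess of rises over falls did not hold in either setting. Nor did the excess hold without H18 (635 and 653) or without H19 (684 and 716).

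**Figure D1:**
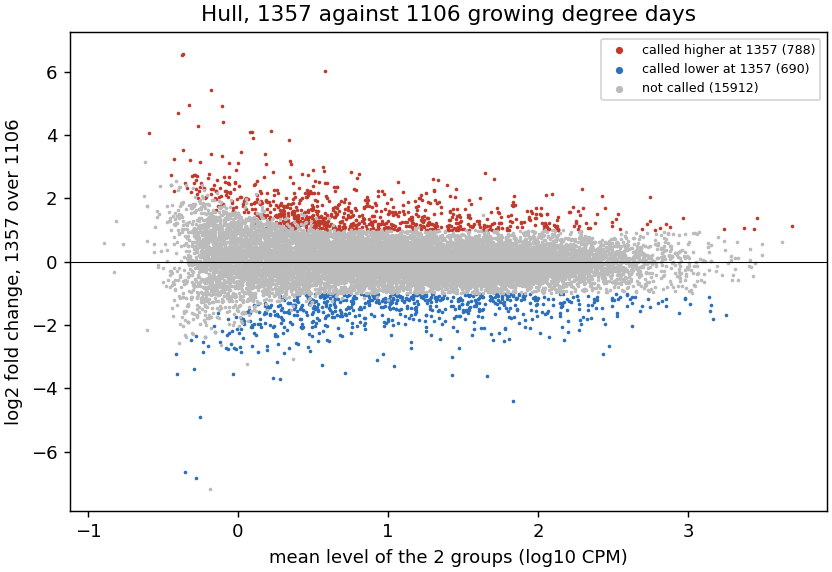
Each point is a gene tested, with its mean level in hull 1357 and hull 1106 (log10 CPM) on the horizontal axis and its log2 fold change, 1357 over 1106, on the vertical axis. The 788 genes called higher and the 690 called lower spread over the whole range of levels, and the median size of called changes is 1.44.

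The genes that rose together took 5.51%, 5.91% and 5.88% of the counts in H17, H18 and H19, against 2.38%, 2.31% and 2.40% in H9, H11 and H12. Those that fell took 2.48%, 2.58% and 2.59% at 1357, against 6.76%, 6.56% and 6.75% at 1106. The genes called thus held a few percent of all counts on either side, and the replicates lay close together. Without the minimum fold change 4559 genes passed, and the share of counts that they held was not measured. Since the genes were called on the same libraries, the separation of the groups describes the size of their change and is no test.

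In 766 of the genes that rose (97.2%, against 20% of all genes tested), every 1357 library stood above every 1106 library, and in 681 of those that fell (98.7%, against 22.4%) it stood below. No gene met a criterion for switching on or off. Of 37063 genes, 0 had no count in the 1106 libraries and at least 10 in each 1357 library, and 0 showed the reverse.

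Rises were most frequent among weakly expressed genes. With the genes tested put in 4 equal parts by their mean level over both groups, 7.47% rose in the lowest part (0.129 to 3.44 CPM) and 2.55% in the highest (46.8 to 4924 CPM). Falls were spread more evenly, at 4.07% in the lowest part and 3.91% in the highest. By the level at 1106 alone, which the comparison itself uses, 434 genes rose and 108 fell in the lowest part, and 70 rose and 211 fell in the highest.

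The files pair no identifier with a gene name, and 0 of 38315 identifiers matched the RefSeq gene table at hand, so functions, coordinates and sequences are not given and only 4 genes are named. They are the largest changes among 329 rises and 406 falls that met a rule for level and separation. A gene qualified with at least 10 counts in each of the 6 libraries, a mean of at least 10 CPM in the higher group and no overlap of the groups. Non-overlap was part of that rule.

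PvKer.11.g264060, a gene numbered on chromosome 11, had 77.7, 81.2 and 73.2 CPM in H17, H18 and H19, against 9.78, 11.4 and 12.8 CPM in H9, H11 and H12. All 1357 libraries were high and close together, and the groups stood far apart. The log2 fold change was 2.80 ± 0.13 (SE; edgeR adjusted p 2.05e-07). At 1223 it stood at 10.3 CPM in both H13 and H14. By the test of 1223 against the mean of 1106 and 1357, described below, it was lower at 1223. The log2 difference was -1.53 (edgeR adjusted p 1.41e-05). The timing of its rise can therefore not be read from the level at 1223. Its hull level was 49.2 ± 11.6 CPM at 1508 (SD, n = 3) and 12.1 ± 2.78 CPM at 1657 (SD, n = 3), so that 1357 held its highest mean of the 15 hull sampling points. With H15 kept, the log2 fold change was 2.42 with an edgeR adjusted p of 0.061, which did not pass.

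The same gene rose in shell. PvKer.11.g264060 had 16.7, 27.9 and 10.8 CPM in the shell libraries labelled 1357, against 6.97, 4.20 and 5.66 CPM in those labelled 1106 (log2 fold change 1.73 ± 0.28, SE; edgeR adjusted p 0.0020). The shell mean was highest at 1508, with 35.1 ± 13.7 CPM (SD, n = 3). The hull change exceeded the shell change by 1.06 ± 0.38 on the log2 scale (SE), which did not pass the test of the difference (edgeR adjusted p 0.12).

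PvKer.07.g190220 was a gene of the hull with its highest hull mean at 1357. It had 9.22, 13.2 and 10.9 CPM in H17, H18 and H19, against 1.12, 1.61 and 2.29 CPM in H9, H11 and H12 (log2 fold change 2.76 ± 0.28, SE; edgeR adjusted p 2.34e-05). The hull libraries labelled 1223 lay between, at 3.51 and 3.27 CPM. At 1508 the hull mean was 1.05 ± 0.67 CPM (SD, n = 3). It was 2.65 ± 0.08 CPM at 1657 and 3.40 ± 0.51 CPM at 2139 (SD, n = 3 each), the highest hull mean outside 1357. This gene belongs to the hull class, and its mean was below 1 CPM at each shell and kernel sampling point. The shell libraries labelled 1357 and 1106 had 0 to 13 counts. The log2 fold change there was 2.59 ± 1.11 (SE; edgeR adjusted p 0.13), which did not pass. At this depth, whether the rise differed between hull and shell cannot be told. With H15 kept, the log2 fold change was 2.37 with an edgeR adjusted p of 0.097, which did not pass.

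PvKer.11.g274710 had the largest fall among the 406 that met the rule. It had 7.25, 7.07 and 4.05 CPM in H17, H18 and H19, against 203.9, 117.2 and 71.2 CPM in H9, H11 and H12 (log2 fold change -4.39 ± 0.36, SE; edgeR adjusted p 5.64e-06). The 1106 libraries spread widely, yet the lowest of them stood far above every 1357 library. At 1223 it stood lower still, at 1.34 and 2.91 CPM. It too was called lower at 1223 than the mean of 1106 and 1357 (log2 difference -3.68, edgeR adjusted p 0.00010). In shell it had 3.87, 7.71 and 4.93 CPM at 1357, against 86.0, 39.7 and 50.8 CPM at 1106 (log2 fold change -3.38 ± 0.40, SE; edgeR adjusted p 0.00031). Its fall was not lasting, since the hull mean was 76.2 ± 54.4 CPM at 1759 (SD, n = 4) and 97.9 ± 15.3 CPM at 2139 (SD, n = 3).

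PvKer.14.g351170, numbered on chromosome 14, was a gene of the young hull. It had 12.1, 4.05 and 4.13 CPM in H17, H18 and H19, against 95.3, 80.5 and 76.7 CPM in H9, H11 and H12 (log2 fold change -3.60 ± 0.31, SE; edgeR adjusted p 6.92e-06). At 1223 it stood at 16.7 and 12.95 CPM. Its hull mean was 262 ± 34.1 CPM at 865 (SD, n = 3) and 57.2 ± 7.49 CPM at 993 (SD, n = 3), and from 1508 on no hull mean exceeded that of 1881, 10.55 ± 1.18 CPM (SD, n = 2). In shell it had 0.149 to 3.30 CPM at 1357, against 0.242 to 5.42 CPM at 1106, and the shell groups overlapped. The hull change was 2.86 below the shell change on the log2 scale, with an SE of 1.02, which did not pass the test of the difference (edgeR adjusted p 0.12).

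**Figure D2:**
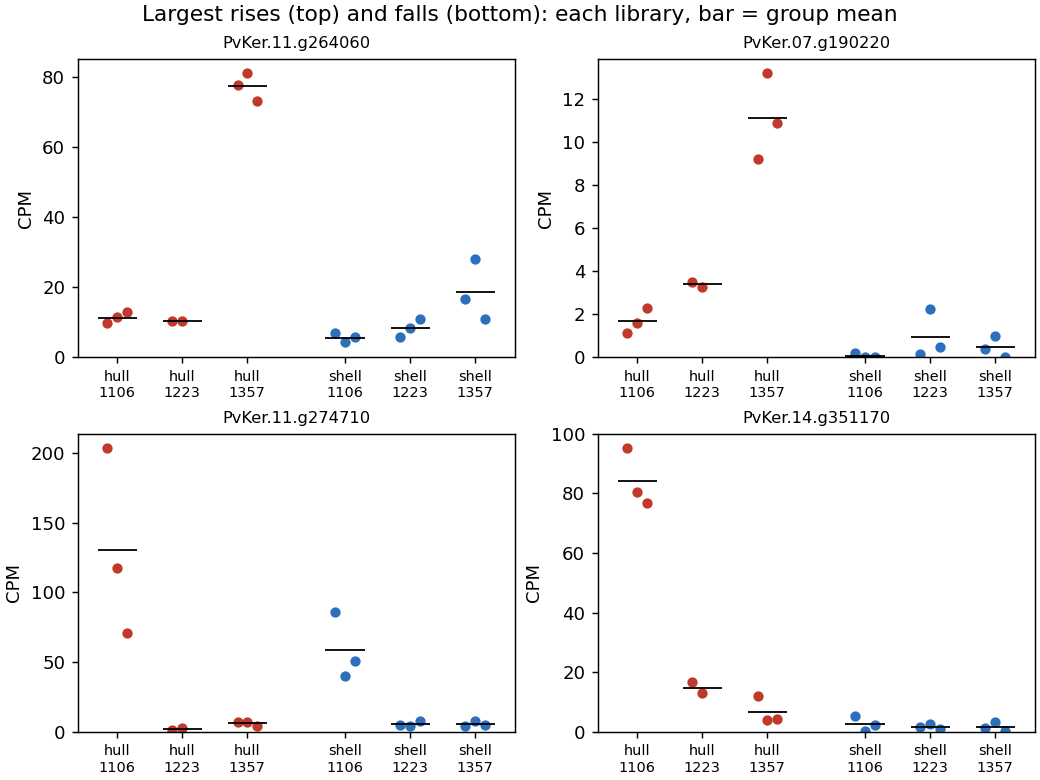
CPM of the 4 named genes in each library of hull and shell labelled 1106, 1223 and 1357, without H15 and S14. Points are libraries and bars are group means. PvKer.11.g264060 stands at 73.2 to 81.2 CPM at hull 1357, and PvKer.11.g274710 at 71.2 to 203.9 CPM at hull 1106 with low values at 1223 in both tissues.

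Where the genes stood before and after the interval was described next, at sampling points that did not choose them. H33 and H34, labelled hull 1881, were left out because they correlated across genes best with shell 1881, at 0.992 and 0.996. With the other hull 1881 libraries they correlated at 0.989 and 0.988, where the mean for H33 included H34 and the reverse. The genes that rose had a mean level of 3.59 ± 0.05 at 1357 and 2.46 ± 0.02 at 1106, in log2(CPM + 1) with the SD over 3 libraries each. They stood at 2.50 ± 0.12 at 865 and 2.62 ± 0.11 at 993 (SD, n = 3 each), near the 1106 level. After the interval they stood at 3.02 ± 0.05 at 1508 and 2.91 ± 0.10 at 1657 (SD, n = 3 each) and at 2.48 ± 0.05 at 2139 (SD, n = 3). By 1508, 375 of the 788 genes (47.6%) were nearer to their 1357 level than to their 1106 level, and by 2139 this held for 186 (23.6%). On average the rises were thus not kept, although genes chosen for a high value at 1357 will tend to be lower elsewhere.

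By nearness to the 1357 level, more of the falls than of the rises held at later points. The genes that fell had a mean level of 3.16 ± 0.03 at 1357 and 4.44 ± 0.03 at 1106 (SD, n = 3 each). They stood at 3.16 ± 0.04 at 1508 and 3.10 ± 0.33 at 1657 (SD, n = 3 each) and at 3.28 ± 0.05 at 2564, the last point (SD, n = 3). At 1657, 569 of the 690 genes (82.5%) were nearer to their 1357 level, and at 2564 this held for 441 (63.9%). Before the interval they had stood at 4.37 ± 0.10 at 865 and 3.98 ± 0.12 at 993 (SD, n = 3 each). At 993, 271 of these 690 genes (39.3%) were already nearer to their 1357 level, against 226 of the 788 that rose (28.7%). Genes chosen for a high value at 1106 will tend to be lower elsewhere, which brings other points nearer to 1357. The mean over all genes tested stayed between 3.82 and 3.98 at every hull point.

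**Figure D3:**
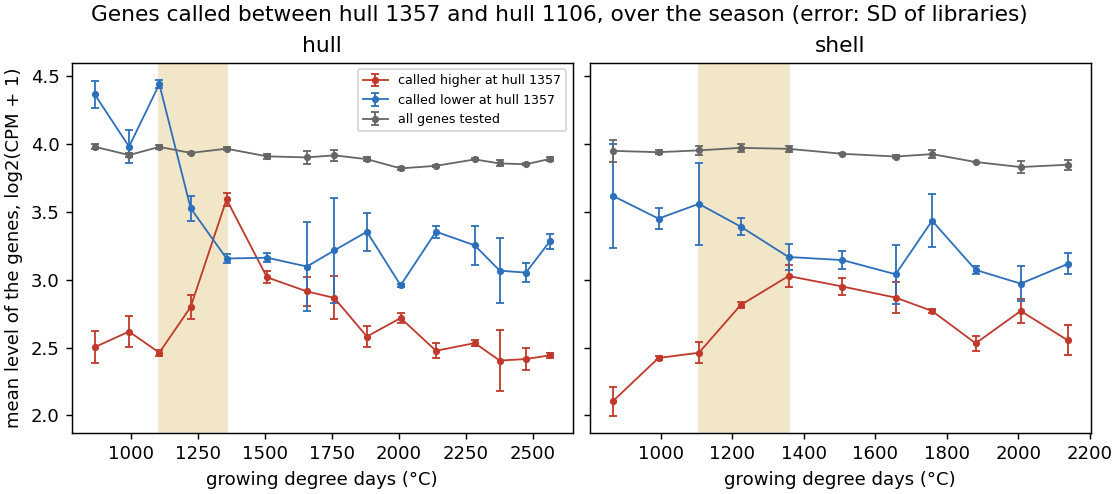
Mean level, in log2(CPM + 1), of the genes that rose (red), the genes that fell (blue) and all genes tested (grey) at each sampling point of hull and shell, with the SD over libraries. H15, H33, H34 and S14 are left out and the band marks 1106 to 1357. In hull the red line peaks at 1357 with 3.59 and is back at 2.48 by 2139, while the blue line stays between 2.96 and 3.35 from 1508 on.

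The hull at 1223 was not a simple midpoint. Against 1106, 646 genes were higher and 1182 lower at 1223 (3.71% and 6.80% of those tested by edgeR). From 1223 to 1357, 1185 genes were higher and 562 lower at 1357 (6.81% and 3.23%). With H15 kept, the first step had 223 higher and 389 lower, and the second had 55 and 31. Each of these shorter steps, without H15, had more calls than the 1478 of the whole interval (8.50%), with which they share libraries. Across genes, 1223 libraries correlated with 1106 libraries at 0.983 to 0.984 and with 1357 libraries at 0.982 to 0.984, whereas 1357 and 1106 libraries correlated at 0.984 to 0.986.

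Of the 788 genes that rose over the interval, 475 stood between both groups at 1223, 223 stood below their 1106 level and 90 above their 1357 level. Of the 690 that fell, 401 stood between, 211 below their 1357 level and 78 above their 1106 level. Rising genes had covered a median of 29.4% of their log2 change by 1223, and falling genes 71.9%. By these medians, falls were further along than rises at 1223. A level at 1223 below that of both neighbours lowers the fraction of a rise and raises that of a fall. The order of falls and rises in time can therefore not be read from these fractions.

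The excursion at 1223 was then tested as the level at 1223 against the mean of 1106 and 1357, a test chosen after the results above were seen. By edgeR, 466 genes were higher and 1000 lower at 1223, which is 2.68% and 5.75% of those tested. The genes that were higher took 4.17% and 4.31% of the counts in H13 and H14, against 1.88% to 2.12% at 1106 and 1.51% to 1.79% at 1357. Those that were lower took 2.07% and 2.05% at 1223, against 5.88% to 6.21% at 1106 and 5.31% to 5.59% at 1357. Both lists were called on these same libraries, so the shares describe the size of the excursion and are no test of it. With H15 kept, 82 genes were higher and 143 lower.

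Shell showed part of the same excursion in other libraries. S14, labelled shell 1223, was left out because it correlated across genes at 0.993 with hull 1223 and at 0.973 with the other shell 1223 libraries. Without it, 862 genes were higher and 771 lower at shell 1223 than the mean of shell 1106 and shell 1357 (4.98% and 4.46% of those tested by edgeR). With S14 kept, 1041 were higher and 831 lower. Of the genes tested in both tissues and higher at hull 1223, 157 of 457 (34.4%) were also called higher at shell 1223, which is 18.8% of the shell list of 833. Of those lower at hull 1223, 232 of 936 (24.8%) were also called lower in shell, which is 34.6% of the shell list of 670. Opposite calls in shell were 3 and 14. The labels give no time of day, tree or extraction date for these libraries, so the sampling occasion and the developmental stage cannot be told apart.

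These genes moved again later in hull, at points that did not choose them. The list that was lower at 1223 had a mean level of 2.63 ± 0.02 at 1223 (SD, n = 2), in log2(CPM + 1). It stood at 3.35 ± 0.09 at 1508, 2.73 ± 0.04 at 1657 and 2.52 ± 0.01 at 2564 (SD, n = 3 each). The list that was higher at 1223 stood at 4.55 ± 0.05 there (SD, n = 2), at 3.59 ± 0.08 at 1508 and at 3.997 ± 0.32 at 1657 (SD, n = 3 each). On both lists 1657 was thus nearer to 1223 than 1508 was, and so was 2564. From 1657 on, the list that was lower at 1223 stayed between 2.52 and 3.04. The list that was higher stood at 3.48 ± 0.05 at 2139 and 4.06 ± 0.08 at 2564 (SD, n = 3 each). The point at 1657 was therefore not alone in this. Of the 134 hull-class genes tested, 4 were called higher (2.99%, against 2.68% of all genes tested) and 46 lower (34.3%, against 5.75%) at 1223. Of 175 shell-class genes tested, 3 were called higher (1.71%) and 20 lower (11.4%). Of 1154 kernel-class genes tested, 49 were called higher (4.25%) and 73 lower (6.33%).

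**Figure D4:**
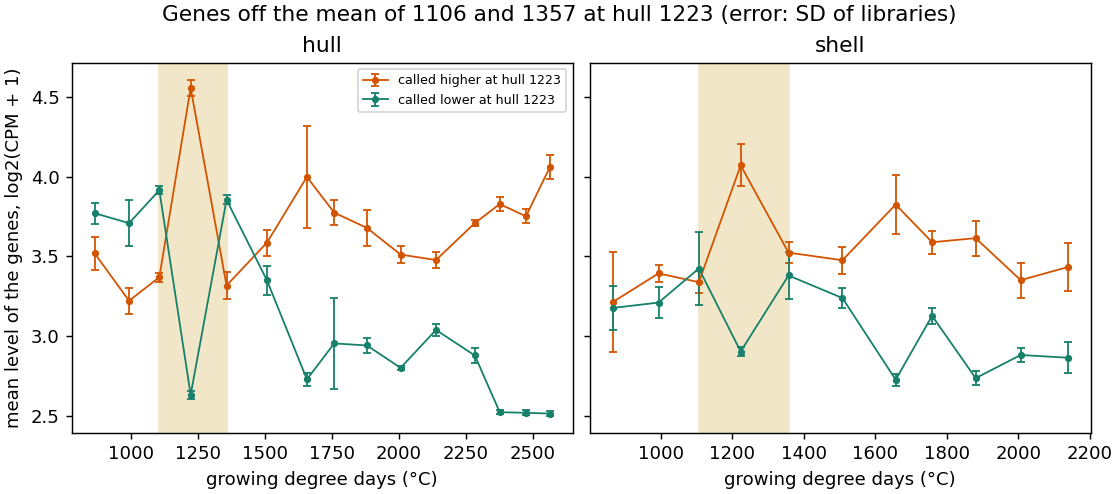
Mean level, in log2(CPM + 1) with the SD over libraries, of the genes called higher (orange) or lower (green) at hull 1223 than the mean of hull 1106 and hull 1357, at each sampling point of hull and shell without H15, H33, H34 and S14. The lines part at 1223 in both tissues, to 4.55 and 2.63 in hull and 4.07 and 2.90 in shell. The genes were called on the hull libraries, so the gap at hull 1223 follows from that choice.

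Whether shell changed in the same way over the interval was asked with 3 shell libraries at each end. In shell 636 genes were higher and 285 lower at 1357 than at 1106 (3.60% and 1.61% of 17689 genes tested by edgeR), with no library shared with hull. Without S12 (labelled shell 1106) the balance turned, to 361 higher and 408 lower, and without S17 (labelled shell 1357) the counts were 414 and 166. Of the genes that rose in hull and were tested in both fits, 218 of 769 (28.3%) also rose in shell, which is 35.9% of the shell list, and 5 fell. Of those that fell in hull, 87 of 681 (12.8%) also fell in shell, which is 33.6% of the shell list, and 0 rose. The median shell change was 0.78 (log2) over the genes that rose in hull and -0.44 over those that fell.

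Few genes passed the test of a difference between the tissues. The hull change was called above the shell change for 174 genes and below it for 305, which is 0.984% and 1.72% of those tested by edgeR. In the same fit, 3.91% of all genes were called higher and 3.55% lower in hull. The difference carries the error of the changes in both tissues, so it is harder to detect than the hull change. The smaller counts therefore do not show that the tissues changed alike. Among the 305, the median change was -0.93 (log2) in hull and 0.49 in shell, 136 were called lower in hull, and 47 were called higher in shell. Among the 174, the median change was 0.94 in hull and -0.60 in shell, 77 were called higher in hull, and 33 were called lower in shell. These counts depended on single libraries. They were 41 and 104 without H11 (labelled hull 1106), 449 and 683 without S10 (labelled shell 1106), and 10 and 36 with H15 kept. They were 76 to 105 and 160 to 203 without any 1 of H9, H12, H17, H18, S11, S17, S18 and S19, and 199 and 185 without S12. With all hull and shell libraries but H15, H33, H34 and S14 in the fit they were 33 and 27.

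**Figure D5:**
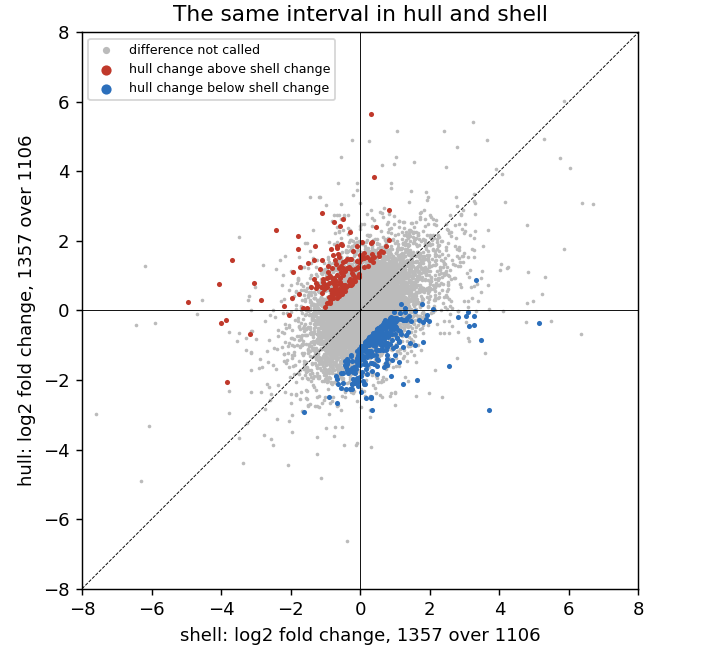
Log2 fold change, 1357 over 1106, in hull (vertical) against shell (horizontal) for each of 17689 genes, with the genes coloured for which the difference between tissues was called. Of the coloured genes, 174 lie above the dashed line of equal change and 305 below it.

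Genes of the tissue classes were counted in the hull comparison. Of the hull class, 134 of 135 genes were tested, of which 19 rose and 21 fell, 14.2% and 15.7% against 4.53% and 3.97% of all genes tested. The median change of the class was -0.26 (log2), against 0.019 over all genes tested. Hull-class genes were thus called in both directions. Of the shell class, 175 of 270 genes were tested, of which 11 rose and 11 fell (6.29% each). Of the kernel class, 1154 of 1762 were tested, of which 73 rose (6.33%) and 81 fell (7.02%). With a class ratio of at least 10, the share that rose was 16.7% in the hull class (18 genes tested) and 13% in the kernel class (400 tested), and the share that fell was 5.56% and 8.5%.

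The summed level of the kernel class moved with the groups. It was 2.14%, 2.23% and 2.79% of the counts in H17, H18 and H19, against 1.97%, 1.90% and 1.93% in H9, H11 and H12, and the groups did not overlap. Of its 1762 genes, 258 to 270 had no count in a 1357 library and 274 to 333 in a 1106 library. The part of kernel RNA in the calls was not tested. The shell class ran the other way, with a lower summed level at 1357 than at 1106 in every library.

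The numbered chromosomes of the identifiers all held genes of both directions. The share of tested genes that rose ran between 2.91% (24 of 825, chromosome 14) and 6.12% (62 of 1013, chromosome 5). The share that fell ran between 2.29% (24 of 1047, chromosome 7) and 5.11% (49 of 959, chromosome 9). Chromosome 7 had the most uneven split, with 64 genes that rose and 24 that fell.

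Called genes had called neighbours in identifier order. Of the 788 genes that rose, the next tested identifier also rose for 85 (10.8%, against 4.53% of all genes tested) and fell for 12. Of the 690 that fell, the next also fell for 48 (6.96%, against 3.97%) and rose for 16. The longest run was of 6 successive tested identifiers on chromosome 3, with log2 changes of 1.21 to 4.30. Their summed level was 77.7 ± 14.9 CPM at 1357 and 28.02 ± 2.16 CPM at 1106 (SD, n = 3 each). A run of 5 on chromosome 4 summed to 365.7 ± 26.02 CPM at 1357 and 112.1 ± 5.80 CPM at 1106 (SD, n = 3 each). Whether the genes of a run are near-identical copies cannot be told without sequences. How the authors assigned reads shared between such copies is not given in the sources used here, so counts of any copies may be split.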

How the data were processed

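The deposited table holds raw counts of reads for each gene, a column for each library. Per the submitters' processing notes, Trimmomatic 0.39 and Bowtie2 2.3.4.1 were used. How reads were counted, on which genome build and annotation, and whether strand was used is not given in the sources used here. Only the 37063 identifiers starting PvKer were used, and the 1252 contig-named ones took 0.466% to 1.69% of the counts in the 8 hull libraries fitted.

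Hull libraries labelled 1106, 1223 and 1357 without H15 were fitted with edgeR 4.0.16 in R 4.3.3 (TMM, filterByExpr, quasi-likelihood F-test, Benjamini-Hochberg), with a mean per group. Shell was compared in 1 fit of 12 libraries of both tissues at 1106 and 1357, which also tested the difference between tissues. The excursion at shell 1223 was fitted on shell alone. SEs were derived from the log2 fold change and its F statistic. CPM values were scaled by TMM over all libraries. The functions were tested on simulated counts. No replicate pair agreed within sampling noise (chi-square per degree of freedom 9.34 or more). Alternatives used DESeq2 1.42.0, limma 3.58.1 with voom, other scalings, filters and sets of libraries. The genes named follow the rule given in the text. The comparison, the classes and the lists were chosen with earlier results of these data known.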

Additional observations from a re-analysis of the deposited data

Results flagged for a closer look

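Libraries of the hull group labelled 1357 were screened with H15 kept, on 6 measures, of which chance would mark about 1 in 20. H15 stood far from the others on 2 of them. It had already been left out for its likeness to shell, which both of these measures follow. The rate of 1 in 20 therefore does not apply to it. The shell class took 1.46% of its counts against 0.0535% to 0.0711% in H17, H18 and H19. Its correlation across genes with the other libraries of the group was 0.964, against 0.990 to 0.993 in H17, H18 and H19. The latter were correlated with means that included H15.

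The change over the interval differed between hull and shell by the test of the difference itself, for 174 genes with the hull change above the shell change and for 305 with the hull change below it (edgeR). When single libraries were left out, these counts moved more than those of the other comparisons.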

How the results depend on the processing

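The hull groups compared share no title number, so no replicate block could be fitted between them. Hull and shell share 5 title numbers at 1106 and 1357, whose deviations from the group means correlated at -0.115 to 0.133, and 3 of the 5 hull libraries correlated best with their own number among the shell libraries of their sampling point. The labels do not say whether equal numbers mark a shared tree or fruit, and these 5 correlations cannot settle it. With these numbers as a replicate block, the difference between tissues had 324 genes higher and 531 lower, against 349 and 555 in the same 10 libraries with no replicate block, both chosen after seeing the data. Counts below are given as genes higher, then genes lower. Without a minimum fold change they were 2189 and 2370 for hull 1357 against 1106, 2264 and 2460 for 1223 against 1106, 2276 and 2188 for 1357 against 1223, 2288 and 2297 for the excursion at hull 1223, 1499 and 1015 for shell 1357 against 1106, 280 and 520 for the difference between tissues, and 2531 and 2241 for the excursion at shell 1223. With H15 kept they were 216 and 300, 223 and 389, 55 and 31, 82 and 143, 246 and 76, and 10 and 36, in the same order and without the last. With all hull libraries but H15 in the fit, 451 genes were higher for 1357 against 1106, 741 lower for 1223 against 1106, 696 higher for 1357 against 1223 and 628 lower for the excursion at hull 1223. With all hull and shell libraries but H15, H33, H34 and S14, the shell comparison had 359 higher, and the difference between tissues had 33 and 27. DESeq2 called 343 higher for that difference. With a class ratio of at least 10, the share that fell was 5.56% in the hull class and 1.61% in the shell class, and the share that rose was 13% in the kernel class. The cause of these moves was not tested.

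With 1 library left out, hull 1357 against 1106 had 632 to 786 higher and 614 to 716 lower, the shell comparison had 361 to 865 and 166 to 408, and the difference between tissues had 41 to 449 and 104 to 683. Of 318 combinations of a result and an alternative that were run, 251 were kept. Named genes had to stay called in the same direction, and counts had to stay within 1.5 times their value. Class shares had to stay within the 95% binomial interval of the main share. Without a minimum fold change the named genes have the values of the main fit, so those could not move. Counts have no direction, but their balance turned in some. Hull 1357 against 1106 had fewer genes higher than lower without a minimum fold change (2189 and 2370), with H15 kept (216 and 300) and with all hull libraries but H15 in the fit (451 and 463). The same hull comparison did so without H18 (635 and 653) and without H19 (684 and 716). The shell comparison did so without S12 (361 and 408). The excursion at shell 1223 did so with upper quartile scaling (811 and 825) and without S13 (838 and 839). The difference between tissues had more higher than lower without S12 (199 and 185) and with all hull and shell libraries but H15, H33, H34 and S14 (33 and 27). The 4 named genes kept their direction in all 68 of theirs and lost their call in 2, both with H15 kept. They were chosen for groups that do not overlap, so this is no sign of stability. Depth limits statements on genes with few counts, such as PvKer.07.g190220 in shell.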
